A study of Mus musculus with 10 samples.

Results

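Glycolysis genes and genes induced by low oxygen were examined in skin wounds of diabetic mice that had received a miR-132 mimic or a control mimic. The set held 38 genes, chosen with earlier results of these data known and matched by symbol. Of them, 36 had an array feature assigned to that gene alone, out of 30702 genes with such a feature. Gpi1 and Eno1 had none and were not analysed here, and Ero1l is listed under its current symbol Ero1a. All 36 lay above the level required for testing, which 17633 genes passed. By role they were 3 transporters of glucose or lactate, 13 measured enzymes of glycolysis, 3 regulators of glycolytic flux, 4 genes for hypoxia-inducible factor (HIF) subunits and their prolyl hydroxylases, and 13 other hypoxia-induced genes.

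All animals were male db/db mice, labelled BKS(D)-Leprdb/JOrlRj on a C57BL/6 background, a strain made diabetic by loss of the leptin receptor. They were 11 weeks old and caged singly for a week before injury, and received 2 dorsal wounds with a 4 mm punch. Each wound edge was injected at 4 points with 0.5 nmol of miR-132 mimic (5 samples) or control mimic (5 samples) in 100 µl together with the carrier MaxSuppressor In Vivo RNA-LANCEr II, so the controls share the diabetes, the wound, the injection and the carrier. RNA of wound-edge biopsies taken 6 days after injury went to 10 Affymetrix Clariom D arrays, and values are log2 signal. Unwounded skin and non-diabetic wounds were not analysed here. The labels do not say whether each array is a separate mouse or holds 1 or both wounds of one, so p-values measure the spread between these samples.

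Glycolysis splits glucose into pyruvate in the cytosol, and cells that make lactate from pyruvate can run it without oxygen. When oxygen is low, prolyl hydroxylases no longer mark HIF-alpha subunits for breakdown, and HIF then raises transcription of glucose transporters, most glycolytic enzymes and genes for pH control, autophagy and collagen folding. HIF activity is set largely at the protein level, so transcripts of its targets are read more often than those of its subunits. A healing wound is low in oxygen, and keratinocytes migrating over it, neutrophils and activated macrophages all use glycolysis heavily.

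The supplied microRNA and promoters of 5 members are shown because the comparison rests on the first and HIF acts through a short element in the second. The labels do not say which arm the mimic carried. RefSeq (GRCm38.p6) places both arms on the plus strand, at chr11:75173686-75173707 for the 5p arm and chr11:75173723-75173744 for the 3p arm. Both are 22 bases long, and the seed, bases 2 to 8, is in capitals.
mmu-miR-132-5p: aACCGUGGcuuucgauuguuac
mmu-miR-132-3p: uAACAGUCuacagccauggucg

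The HIF-binding element has the core ACGTG or GCGTG, which was searched on both strands in the 250 bases before each transcription start (RefSeq, GRCm38.p6). Of the 34 members with a promoter in that table, 31 held a core in at least 1 of their windows, against 41.5% of 27025 genes. Per window the shares were 78.4% of 51 member windows and 38.6% of all 32851 windows. Member windows are rich in CG dinucleotides, with a median of 14 against 6 over all windows, and 67.3% of all windows with at least 14 held a core. Tpi1 and Car12 were the measured members with a window and no core, and Slc2a3, Epas1, Ndrg1 and Bhlhe40 had no entry. The members were listed as glycolysis and hypoxia-induced genes, so their share with a core is not independent of that choice. A match describes the letters of the window and says nothing of binding. Below are the windows of the member with the smallest p in each role, 5′ to 3′ in the direction of the gene, with each core on either strand in capitals.
Slc2a1 promoter: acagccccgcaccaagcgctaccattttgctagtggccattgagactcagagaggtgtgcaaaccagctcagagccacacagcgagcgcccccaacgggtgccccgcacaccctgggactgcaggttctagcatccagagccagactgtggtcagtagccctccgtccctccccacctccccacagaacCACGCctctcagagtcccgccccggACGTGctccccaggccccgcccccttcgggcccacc
Hk2 promoter: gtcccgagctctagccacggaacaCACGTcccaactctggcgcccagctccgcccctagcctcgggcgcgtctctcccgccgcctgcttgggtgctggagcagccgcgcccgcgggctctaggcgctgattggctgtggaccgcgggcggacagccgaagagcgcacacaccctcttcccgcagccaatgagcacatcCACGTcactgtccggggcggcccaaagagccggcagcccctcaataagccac
Pfkfb4 promoter: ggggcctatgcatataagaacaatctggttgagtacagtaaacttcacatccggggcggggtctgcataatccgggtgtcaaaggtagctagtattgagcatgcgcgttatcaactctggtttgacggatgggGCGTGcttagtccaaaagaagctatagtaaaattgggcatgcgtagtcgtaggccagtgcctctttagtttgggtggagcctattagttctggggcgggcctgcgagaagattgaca
Egln3 promoter: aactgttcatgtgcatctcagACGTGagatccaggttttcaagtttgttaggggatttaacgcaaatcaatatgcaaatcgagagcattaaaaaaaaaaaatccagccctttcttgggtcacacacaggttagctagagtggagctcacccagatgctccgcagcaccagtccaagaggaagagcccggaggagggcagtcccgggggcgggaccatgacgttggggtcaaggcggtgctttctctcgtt
Ankrd37 promoter: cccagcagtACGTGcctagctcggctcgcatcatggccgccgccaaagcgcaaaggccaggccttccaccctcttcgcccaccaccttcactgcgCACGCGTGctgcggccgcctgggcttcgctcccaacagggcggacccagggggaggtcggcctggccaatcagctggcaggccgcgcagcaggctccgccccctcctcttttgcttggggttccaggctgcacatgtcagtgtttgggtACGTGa
They lie at chr4:119108495-119108744 (plus strand), chr6:82774455-82774704 (minus strand), chr9:108991652-108991901 (plus strand), chr12:54203875-54204124 (minus strand) and chr8:45999851-46000100 (minus strand). Slc2a1 and Hk2 hold 2 cores each, Pfkfb4 and Egln3 1 each and Ankrd37 4, of which 2 overlap in the run CACGCGTG.

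Over all genes, limma called 0 of 17633 at an adjusted p of 0.05 (0% called, lowest adjusted p of 0.597), against 52 without miR-132 replicate 3, and 1422 had an unadjusted p under 0.05. Of the genes at that p, 69.5% averaged lower with miR-132 on the deposited values, 48.6% after quantile normalization, 89.6% after median centring and 39.4% without miR-132 replicates 2 and 5. The central signal range, from the 10th to the 90th percentile, was 4.81 to 5.03 on control arrays and 4.41 to 4.92 on miR-132 arrays, narrowest on miR-132 replicates 2 and 5. Basal keratinocyte markers averaged 10.58 ± 0.37 (controls) and 10.30 ± 0.22 (miR-132; SD, n = 5 each), and all 10 were above the level filter. All 10 averaged lower with miR-132 (53.6% of all genes), 2 of them at an unadjusted p under 0.05 (Trp63 and Itga3, against 5.61% of all genes). Krt5 stood at the signal limit of 19.93 on all arrays but miR-132 replicates 1 and 5, and Krt14 on all but miR-132 replicate 1.

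The 36 listed glycolysis and hypoxia genes averaged lower in miR-132 wounds, but on 4 of the 5 arrays and not on the fifth. Of these members, 0 passed limma's adjusted threshold (adjusted p of 0.597 to 1). They were chosen with earlier results of these data known. Of 73 further genes of glucose metabolism and the hypoxia response, 40 averaged lower and 33 higher. The 36 members had a mean log2 signal of 9.50 ± 0.15 in the control group and 9.06 ± 0.40 in the miR-132 group (SD, n = 5 per group). It measured 9.31, 9.59, 9.38, 9.56 and 9.66 in control replicates 1 to 5 and 8.74, 8.89, 9.75, 8.94 and 8.99 in miR-132 replicates 1 to 5. Thus 4 miR-132 arrays lay below every control, and miR-132 replicate 3 lay above every control. The mean of the log2 differences was -0.43 and their median -0.35, while the median over all genes tested was -0.016. In RNA of whole tissue, fewer cells of a type and less RNA per cell cannot be told apart.

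By gene, 34 of the 36 averaged lower, P4ha2 averaged higher by 0.004, and Gapdh did not vary. Of all genes tested, 53.6% averaged lower. After quantile normalization 31 members averaged lower (45.1% of all genes), and after median centring 36, Gapdh among them (70.1% of all genes). An unadjusted p under 0.05 was reached by 7 members, all lower (Hk2, Pfkp, Pkm, Slc2a1, Ankrd37, Kdm3a and Mxi1), where 5.61% of all genes were lower at that p. Averages at least 2-fold lower were found for 4 members (Slc2a1, Hk2, Egln3 and Ndrg1), against 0.692% of all genes. The groups did not overlap for 0 members, against 0.93% of all genes. At least 4 miR-132 arrays lay below every control for 10 members, against 6.63% of all genes.

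The count of 7 depended on single arrays. It was 21 without miR-132 replicate 3, where 10.4% of all genes were lower at that p. It was 2 without miR-132 replicate 1 (4.4% of all genes), miR-132 replicate 4 (5.23%) or control replicate 4 (3.73%). It was 3 without miR-132 replicate 2 (3.71%), control replicate 2 (5.28%) or control replicate 5 (3.5%), and 4 without miR-132 replicate 5 (3.69%). Without miR-132 replicates 2 and 5 together it was 1 (2.27% of all genes), and after quantile normalization it was 2 (3.27%). A covariate for the hybridisation controls gave 14 (6.16% of all genes), the replicate number as a block 4 (4.57%), and quantile normalization with array 3 of the miR-132 group left out 17 (7.17%). The mean difference of the members stayed between -0.61 and -0.35 when single arrays were left out and was -0.32 after quantile normalization. It was -0.36 without miR-132 replicates 2 and 5.

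**Figure D1:**
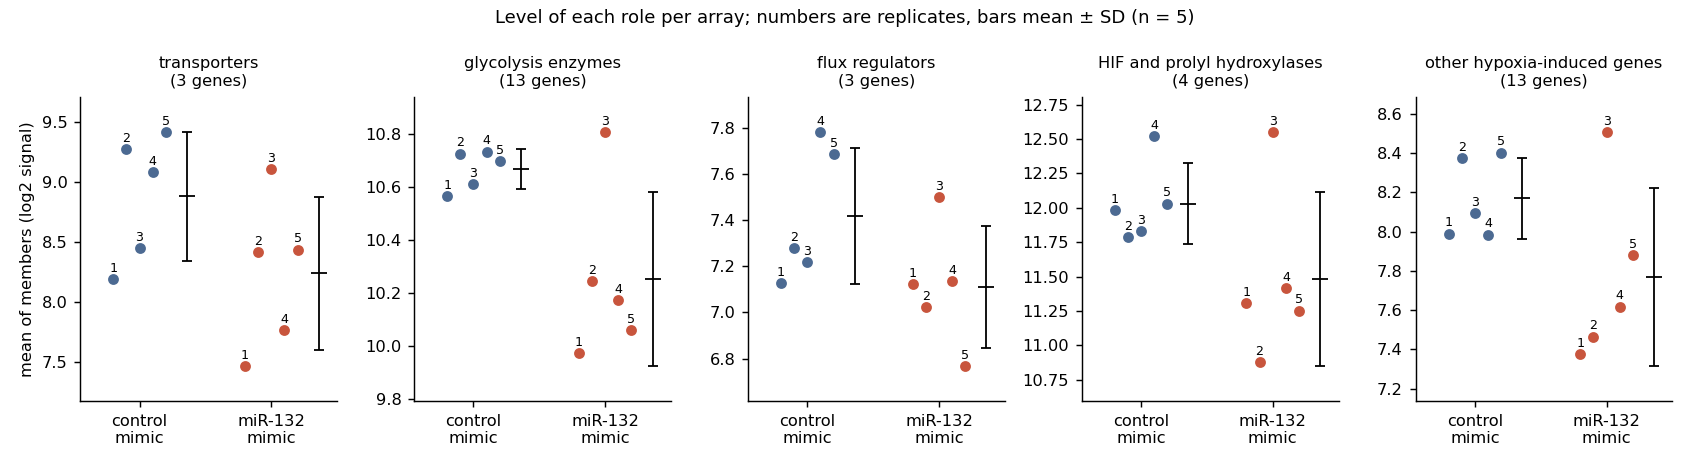
Mean log2 signal of the measured members of each role on each array (y axis, a scale of its own for each panel), for control mimic and miR-132 mimic wounds. Points are arrays labelled by replicate, and bars are mean ± SD over 5 arrays. For glycolysis enzymes, miR-132 replicates 1, 2, 4 and 5 lie below every control and replicate 3 lies above every control.

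The exception, miR-132 replicate 3, was the highest of the 5 miR-132 arrays for 26 of 36 members, against 21.9% of all genes tested. It lay below the control mean for 12 of the 36, against 53.3% of all genes. The other miR-132 arrays lay below the control mean for 34 (replicate 1), 32 (replicate 2), 31 (replicate 4) and 30 (replicate 5) of the 36. The matching shares of all genes were 47.3%, 65.8%, 42% and 55.3%. The SD was larger with miR-132 than in controls for 29 of 36 members, against 68.1% of all genes. The median member SD was 0.40 with miR-132 and 0.27 in controls, and over all genes it was 0.23 and 0.17.

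**Figure D2:**
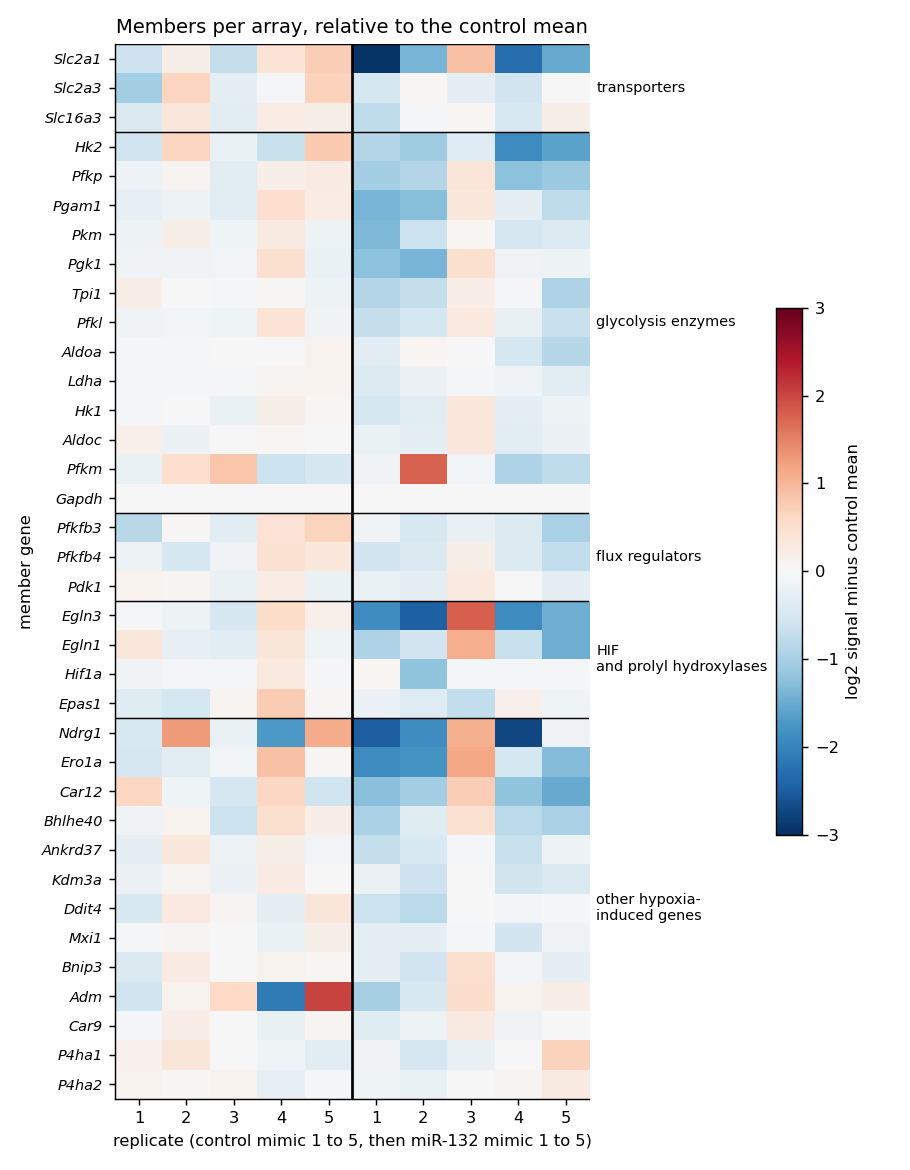
Each row is a measured member and each column an array, coloured by log2 signal minus the control mean of that gene (blue lower, red higher), with roles separated by lines. The colour scale ends at -3 and 3. Columns of miR-132 replicates 1, 2, 4 and 5 are mostly blue, and that of replicate 3 is mixed with red for Egln3, Egln1, Ero1a and Ndrg1.

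All 3 transporters averaged lower (mean difference of -0.64). Slc2a1 (GLUT1), the main glucose carrier of keratinocytes, differed most between the groups. It measured 12.85, 13.65, 12.76, 13.88 and 14.22 in control replicates 1 to 5 and 10.53, 12.08, 14.36, 11.20 and 11.95 in miR-132 replicates 1 to 5. As with the whole set, 4 miR-132 arrays lay below every control and replicate 3 lay above every control. Slc2a1 averaged 2.73-fold lower (log2 -1.45 ± 0.65, SE, 5 arrays per group), with limma's unadjusted p at 0.0492 and adjusted p at 0.618. Without miR-132 replicate 3 the groups did not overlap and the difference was -2.03 ± 0.41 (adjusted p of 0.091). Slc2a3 (GLUT3), a high-affinity glucose carrier of neurons and leukocytes, measured 5.35 to 7.05 in controls and 5.79 to 6.42 with miR-132, so that the miR-132 arrays fell inside the control range (difference of -0.26 ± 0.31, SE). Slc16a3 (MCT4), which exports lactate, measured 6.37 to 7.15 and 6.04 to 6.98 (-0.21 ± 0.22, SE). The intervals of these differences (95%, moderated) were -0.96 to 0.43 for Slc2a3 and -0.70 to 0.27 for Slc16a3, so averages up to 1.95-fold and 1.63-fold lower lie inside them, as does 0.

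Glycolysis enzymes as a group measured 10.57, 10.73, 10.61, 10.73 and 10.70 on average in control replicates 1 to 5, a narrow range. With miR-132 the mean was 9.97, 10.25, 10.81, 10.17 and 10.06 in replicates 1 to 5. Of 13 measured enzymes 12 averaged lower (53.6% of all genes), and the median difference was -0.36. An unadjusted p under 0.05 was reached by 3 of them (Hk2, Pfkp and Pkm), where 5.61% of all genes were lower at that p. The enzymes are given here in the order of the pathway.

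Hk2, the inducible hexokinase that traps glucose in the cell, measured 9.18, 10.41, 9.58, 9.11 and 10.56 in controls and 8.89, 8.69, 9.37, 7.89 and 8.17 with miR-132. It averaged 2.24-fold lower (-1.17 ± 0.37, SE, unadjusted p of 0.0111, adjusted p of 0.597), all 5 miR-132 arrays lay below the control mean, and replicate 3 overlapped the lower controls. Its constitutive relative Hk1 measured 6.57, 6.61, 6.39, 6.77 and 6.65 in controls and 6.08, 6.26, 6.91, 6.30 and 6.44 with miR-132 (-0.20 ± 0.15, SE). Both hexokinases thus averaged lower, but whether their differences themselves differ was not tested.

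Phosphofructokinase commits sugar to glycolysis and has 3 subunit genes, with different patterns over the arrays. Pfkp, the platelet type, measured 9.44, 9.66, 9.24, 9.76 and 9.84 in controls and 8.56, 8.70, 9.94, 8.36 and 8.47 with miR-132. It averaged 1.72-fold lower (-0.78 ± 0.29, SE, unadjusted p of 0.0237, adjusted p of 0.597). Of its miR-132 arrays, 4 lay between 8.36 and 8.70, below every control, and replicate 3 lay above every control. Without replicate 3, Pfkp passed limma's adjusted threshold (-1.07 ± 0.15, SE, adjusted p of 0.0411), but with quantile normalization as well no member passed (lowest adjusted p of 0.0616). Pfkl, the liver type, measured 7.70, 7.72, 7.67, 8.22 and 7.71 in controls and 7.10, 7.28, 8.09, 7.59 and 7.14 with miR-132 (-0.36 ± 0.20, SE, adjusted p of 0.661), the same arrangement with replicate 3 inside the control range.

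Pfkm, the muscle type, showed another pattern. It measured 7.55, 8.25, 8.57, 7.10 and 7.23 in controls and 7.64, 9.50, 7.66, 6.81 and 6.97 with miR-132, a difference of -0.02 ± 0.51 (SE, adjusted p of 1), which was 0.12 after quantile normalization. Its highest 2 arrays, miR-132 replicate 2 and control replicate 3, were also the highest 2 for the mean of 12 skeletal muscle markers (13.53 and 13.36). Its lowest 3, miR-132 replicates 4 and 5 and control replicate 4, were the lowest 3 for those markers (10.04, 10.43 and 10.16). All 12 muscle markers averaged lower with miR-132, from a group mean of 12.16 ± 1.20 (controls) to one of 11.62 ± 1.41 (SD, n = 5 each). The part of muscle tissue in the level of Pfkm was not tested.

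Further down the pathway, Aldoa (an aldolase) measured 11.08 to 11.22 in controls and 10.79, 11.18, 11.12, 10.59 and 10.26 in miR-132 replicates 1 to 5 (-0.34 ± 0.18, SE). Its relative Aldoc lay near the level filter, at 4.97 ± 0.12 (controls) and 4.84 ± 0.27 (miR-132; SD, n = 5 each). Tpi1 (triosephosphate isomerase) measured 11.86, 11.65, 11.60, 11.71 and 11.50 in controls and 10.79, 10.96, 11.87, 11.63 and 10.74 with miR-132 (-0.47 ± 0.23, SE, adjusted p of 0.642). For Tpi1, replicates 3 and 4 were at control level and the other 3 were below every control.

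Gapdh, which makes the first reduced cofactor of the pathway, stood at 17.64 on all 10 arrays. A feature that holds the same value on every array can show no difference, and 138 of the genes tested were of this kind, 31 of them below the signal limit of 19.93. Gapdh therefore says nothing on glycolysis here, and without it the mean difference of the enzymes was -0.45 in place of -0.42. Pgk1 (phosphoglycerate kinase) measured 16.52, 16.53, 16.56, 17.11 and 16.44 in controls and 15.40, 15.23, 17.12, 16.52 and 16.48 with miR-132, so 2 of 5 miR-132 arrays lay below every control. Its difference was -0.48 ± 0.35 (SE). The identifier of this feature, the brightest assigned to Pgk1, names chromosome 12, whereas RefSeq (GRCm38.p6) places the gene on chromosome X, so the values may not be those of the gene itself. The dimmer Pgk1 feature, whose identifier names chromosome X, measured 13.86, 13.87, 13.81, 14.12 and 13.78 in controls and 12.79, 12.82, 14.13, 13.81 and 13.59 with miR-132, a difference of -0.46.

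Pgam1 (phosphoglycerate mutase) measured 10.93, 11.03, 10.87, 11.68 and 11.42 in controls and 9.78, 9.90, 11.50, 10.92 and 10.42 with miR-132. It averaged 1.60-fold lower (-0.68 ± 0.34, SE, adjusted p of 0.637), with 3 miR-132 arrays below every control. Pkm, the pyruvate kinase of most tissues, measured 13.54, 13.86, 13.57, 13.96 and 13.54 in controls and 12.34, 13.06, 13.76, 13.20 and 13.29 with miR-132. It averaged 1.48-fold lower (-0.56 ± 0.23, SE, unadjusted p of 0.0368, adjusted p of 0.597), with replicate 3 again the only miR-132 array in the control range. Ldha, which turns pyruvate into lactate, measured 10.22, 10.22, 10.22, 10.36 and 10.38 in controls and 9.87, 10.11, 10.23, 10.18 and 9.96 with miR-132 (-0.21 ± 0.12, SE, adjusted p of 0.659). Glycolytic genes such as Gapdh, Pgk1, Pgam1 and Tpi1 have near-identical processed copies in the mouse genome, and their values can include signal of these.

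**Figure D3:**
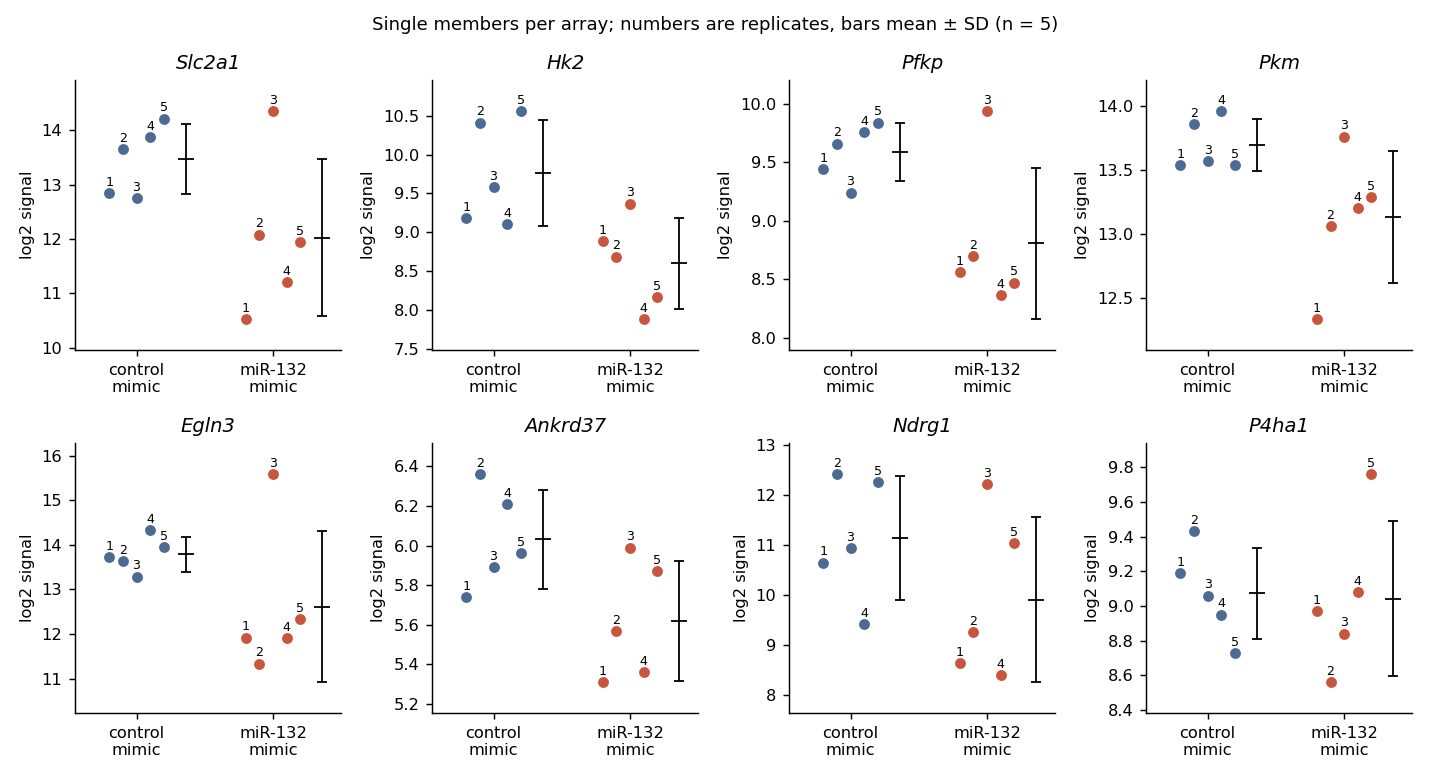
Log2 signal (y axis, a scale of its own for each panel) of 8 members on each array, for control mimic and miR-132 mimic wounds, with replicate numbers at the points and mean ± SD over 5 arrays as bars. Pfkp and Egln3 show 4 miR-132 arrays below the controls and replicate 3 above them, and P4ha1 shows overlapping groups.

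All 3 flux regulators averaged lower (mean difference of -0.31), 0 of them at an unadjusted p under 0.05, where 5.61% of all genes were lower. Pfkfb3, which makes a sugar bisphosphate that activates phosphofructokinase, measured 7.50, 8.37, 8.02, 8.76 and 9.01 in controls and 8.23, 7.85, 8.11, 7.92 and 7.37 with miR-132 (-0.44 ± 0.29, SE). Its highest miR-132 array was replicate 1, whereas replicate 3 was the highest for 10 of the 13 measured enzymes. Pfkfb4, a relative induced by hypoxia, measured 6.78, 6.40, 6.83, 7.38 and 7.24 in controls and 6.35, 6.49, 7.11, 6.51 and 6.19 with miR-132 (-0.40 ± 0.22, SE, adjusted p of 0.659). Pdk1, a kinase that shuts pyruvate out of the mitochondrial dehydrogenase, measured 6.80 to 7.21 in controls and 6.73 to 7.28 with miR-132 (-0.09 ± 0.13, SE).

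Among HIF subunits and the enzymes that control them, all 4 genes averaged lower (mean difference of -0.55). An unadjusted p under 0.05 was reached by 0 of the 4, where 5.61% of all genes were lower at that p. Egln3 (PHD3), an oxygen sensor that is itself induced by HIF, measured 13.73, 13.64, 13.29, 14.33 and 13.94 in controls and 11.92, 11.34, 15.58, 11.91 and 12.33 with miR-132. It averaged 2.25-fold lower, a difference of -1.17 ± 0.71 (SE, unadjusted p of 0.129, adjusted p of 0.685). Replicate 3 stood above every control, and the other 4 below every control. Without it, Egln3 was 3.76-fold lower with no overlap and passed (-1.91 ± 0.25, SE, adjusted p of 0.0396). Egln1 (PHD2), the main oxygen sensor, measured 12.06, 11.49, 11.40, 12.09 and 11.59 in controls and 10.81, 11.15, 12.82, 11.05 and 10.25 with miR-132 (-0.51 ± 0.42, SE), the same arrangement.

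Hif1a, the subunit that drives the glycolytic response, measured 14.82, 14.85, 14.86, 15.21 and 14.86 in controls and 14.99, 13.72, 14.86, 14.86 and 14.86 with miR-132 (-0.26 ± 0.23, SE, adjusted p of 0.788). The feature held the same value of 14.86 on 5 of 10 arrays, and the difference was -0.0275 without miR-132 replicate 2. Epas1 (HIF-2 alpha), more common in endothelium, measured 7.16 to 8.45 in controls and 6.95 to 7.84 with miR-132 (-0.26 ± 0.25, SE), and here replicate 3 was the lowest miR-132 array.

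The other hypoxia-induced genes averaged lower for 12 of 13 (53.6% of all genes), with a median difference of -0.31. Of the 13, 3 were lower at an unadjusted p under 0.05 (5.61% of all genes). The mean of the 13 was 7.99, 8.37, 8.09, 7.98 and 8.40 in control replicates 1 to 5 and 7.38, 7.47, 8.51, 7.62 and 7.88 in miR-132 replicates 1 to 5. Again 4 miR-132 arrays lay below every control and replicate 3 above. Ankrd37, a small ankyrin protein gene strongly induced by HIF, measured 5.74, 6.36, 5.89, 6.21 and 5.96 in controls and 5.31, 5.57, 5.99, 5.36 and 5.87 with miR-132 (-0.41 ± 0.16, SE, unadjusted p of 0.0302, adjusted p of 0.597). Kdm3a, a histone demethylase, measured 8.42, 8.68, 8.42, 8.83 and 8.61 in controls and 8.42, 7.97, 8.58, 8.03 and 8.16 with miR-132 (-0.36 ± 0.15, SE, unadjusted p of 0.0356, adjusted p of 0.597). Both had all 5 miR-132 arrays below the control mean.

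Mxi1, an antagonist of MYC, measured 6.71, 6.85, 6.77, 6.56 and 6.93 in controls and 6.46, 6.47, 6.72, 6.19 and 6.66 with miR-132 (-0.26 ± 0.11, SE, unadjusted p of 0.0398, adjusted p of 0.602). These 3 genes differed by 1.33-fold at most. Larger differences came with larger spread. Ndrg1, a stress-response gene of differentiating epithelium, measured 10.65, 12.41, 10.94, 9.42 and 12.25 in controls and 8.65, 9.26, 12.21, 8.40 and 11.03 with miR-132 (-1.22 ± 0.84, SE, adjusted p of 0.718). Its control replicate 4 lay below 2 of the miR-132 arrays.

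Ero1a, an oxidase for protein folding, measured 11.45, 11.63, 11.87, 12.84 and 12.00 in controls and 10.08, 10.17, 13.11, 11.43 and 10.65 with miR-132 (-0.87 ± 0.56, SE, adjusted p of 0.701). Car12, a membrane carbonic anhydrase that handles acid from glycolysis, measured 9.57, 8.82, 8.43, 9.56 and 8.34 in controls and 7.70, 7.91, 9.69, 7.73 and 7.44 with miR-132 (-0.85 ± 0.45, SE, adjusted p of 0.656). Both had 4 miR-132 arrays below every control and replicate 3 above. The other carbonic anhydrase, Car9, the textbook HIF marker of epithelial tumours, lay close to the level filter of 4.17, at 4.33 ± 0.15 (controls) and 4.26 ± 0.23 (miR-132; SD, n = 5 each). Bhlhe40, a transcriptional repressor of the clock and of hypoxia responses, measured 7.94, 8.15, 7.40, 8.52 and 8.24 in controls and 7.07, 7.69, 8.51, 7.24 and 7.07 with miR-132 (-0.53 ± 0.31, SE).

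The remaining hypoxia genes showed overlapping groups with small or uncertain differences. Ddit4 (REDD1), an inhibitor of mTOR, differed by -0.31 ± 0.22 (SE), and Bnip3, a mitophagy receptor, by -0.14 ± 0.21 (SE). Adm, the vasodilator peptide adrenomedullin, ranged from 6.47 to 10.61 in controls alone and from 7.59 to 9.12 with miR-132 (-0.13 ± 0.67, SE). The collagen prolyl hydroxylase subunits had average differences near 0. P4ha1 measured 9.19, 9.43, 9.06, 8.95 and 8.73 in controls and 8.97, 8.56, 8.84, 9.08 and 9.76 with miR-132 (-0.03 ± 0.23, SE), and P4ha2 measured 5.92 to 6.28 and 5.96 to 6.43 (0.004 ± 0.10, SE). The 95% interval of the difference ran from -0.53 to 0.47 for P4ha1 and from -0.23 to 0.23 for P4ha2, so a 2-fold lower average lies outside both intervals. The direction turned for Bnip3 and P4ha1 after quantile normalization (0.012 and 0.12) and for P4ha2 after median centring (-0.06).

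**Figure D4:**
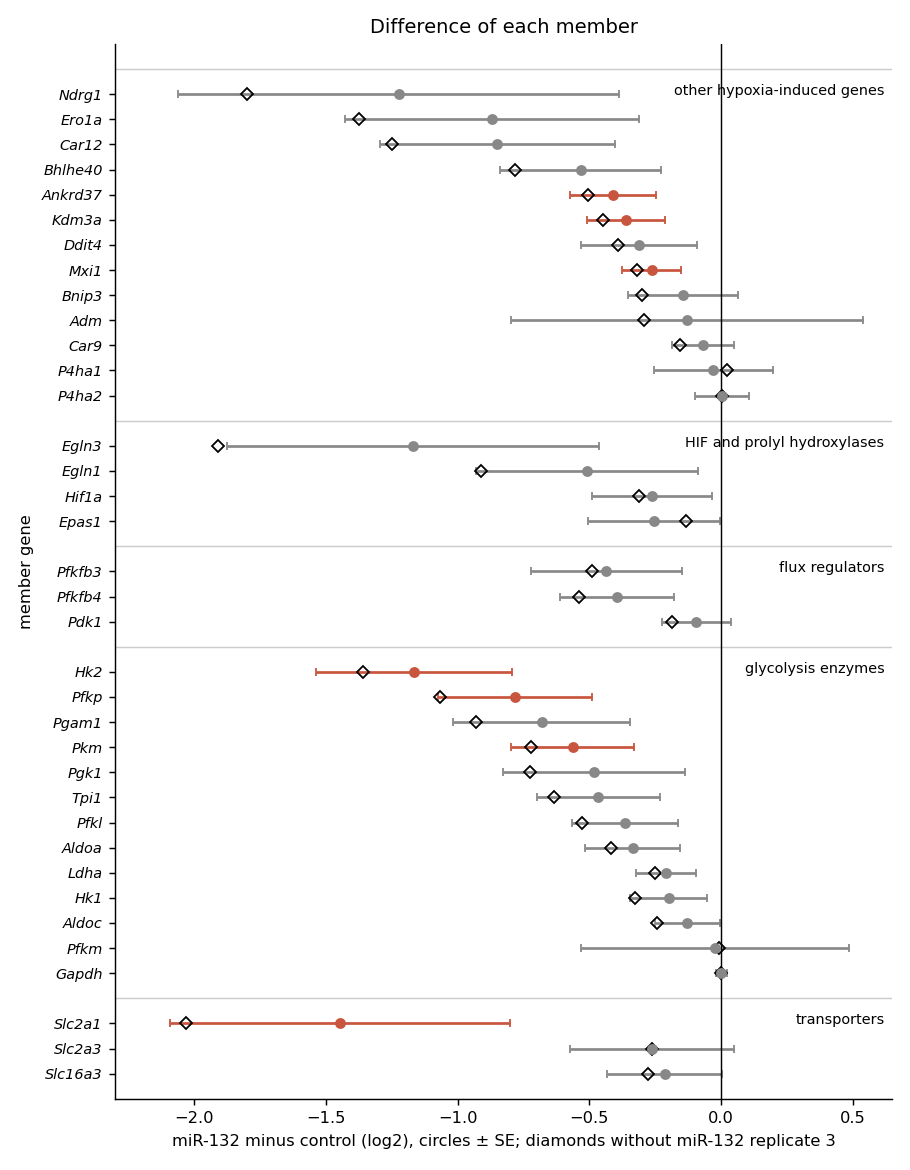
Log2 difference of each measured member (x axis, miR-132 mean minus control mean), as circles with moderated SE (n = 5 per group), red where limma's unadjusted p is under 0.05. Diamonds give the difference without miR-132 replicate 3, which lies further from 0 for Slc2a1 (-2.03), Egln3 (-1.91) and Pfkp (-1.07).

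Set side by side, glycolysis enzymes and other hypoxia-induced genes had nearly the same mean difference, -0.42 and -0.40. The enzyme means here include Gapdh, which did not vary, and without it the mean difference of the enzymes was -0.45. Within each array the mean of the enzymes minus the mean of the hypoxia genes was 2.50 ± 0.18 in controls (2.30 to 2.75) and 2.48 ± 0.24 with miR-132 (2.18 to 2.78; SD, n = 5 per group). The ranges covered each other, so no separation of the roles was seen between the groups, and none was tested. A covariate for the hybridisation controls put the gap between the mean differences at 0.29 and the hypoxia genes at -0.87. Those controls stood at 10.57 to 10.98 on miR-132 arrays and 10.43 to 10.61 on control arrays, so that this covariate overlaps with treatment.

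Without miR-132 replicate 3, 10 of the 36 members no longer overlapped between the groups, all lower, against 5.01% of all genes so lower. They were Slc2a1, Hk2, Pfkl, Pfkp, Pkm, Ldha, Egln1, Egln3, Car12 and Ero1a. Only Pfkp and Egln3 passed adjustment over all genes, which 0.295% of all genes did in that direction. With quantile normalization as well, 0 members passed. On the deposited values without that array, the mean difference of the members was -0.61. These are values of 4 against 5 arrays with the highest miR-132 array removed, and no label sets that array apart.

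The mean of wound-activated keratinocyte markers moved with these genes, though not every marker did. Of 14 measured markers of 16 listed (Krt6a and Krt6b share their features with other genes), 13 averaged lower (53.6% of all genes). Krt16 stood at the limit of 19.93 on every array, and S100a8 and S100a9 reached that limit on all arrays but miR-132 replicate 5. At an unadjusted p under 0.05, 7 of the 14 were lower (5.61% of all genes), and 0 passed adjustment. Averages at least 2-fold lower were found for 10 (0.692% of all genes). The mean difference of the markers was -1.12, against -0.43 for the members. The marker mean was 14.34, 14.37, 14.68, 14.92 and 15.00 in control replicates 1 to 5 and 13.31, 12.75, 15.10, 13.97 and 12.57 in miR-132 replicates 1 to 5. The array with the highest marker mean, miR-132 replicate 3, also had the highest mean of glycolysis enzymes and of other hypoxia-induced genes, and the 4 lowest arrays were the same in all 3 lists. Krt17, a keratin of activated keratinocytes, was at 16.26 on miR-132 replicate 3 and between 12.78 and 15.74 on the other miR-132 arrays. Il1rn, the marker with the smallest p in the list, was at 11.09 on miR-132 replicate 3, below every control (11.71 to 12.54). Its limma unadjusted p was 0.000473 and its adjusted p 0.597. Of the 14 markers, miR-132 replicate 3 lay above the control mean for 9 and below it for 2. The part of these cells in the lower glycolysis genes was not tested.

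Differentiated keratinocyte markers averaged lower for 9 of 14 and higher for 4, with a mean of 11.94 to 13.68 in controls and 11.83 to 13.56 with miR-132, highest on miR-132 replicate 1. Krt1 stood at the limit of 19.93 on every array. Krt10, among the 4 higher, stood there on all arrays but control replicates 3 and 4. For 8 of the 14, miR-132 replicate 3 was the highest miR-132 array, against 21.9% of all genes. For 5 of the 14, at least 4 miR-132 arrays lay below every control, against 6.63% of all genes. Tgm1, a transglutaminase of the cornified envelope, measured 12.99, 13.63, 13.59, 13.93 and 14.17 in controls and 11.74, 10.93, 13.85, 12.26 and 10.17 with miR-132 (-1.87 ± 0.60, SE, adjusted p of 0.597). Krt77 and Flg2, of the same list, averaged higher by 0.69 and 1.38. Sebaceous gland markers averaged lower for 5 of 6, at 8.63 to 10.14 in controls and 7.84 to 10.57 with miR-132, lowest on replicate 3. The part of these cells was not tested.

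Neutrophil markers averaged lower for 10 of 10, at 9.56 to 12.01 in controls and 10.08 to 10.73 with miR-132. Their mean on miR-132 replicate 3 was 10.35, above replicate 2 and below replicates 1, 4 and 5 of that group. These 10 include S100a8 and S100a9, which are also among the wound-activated keratinocyte markers and are lower through miR-132 replicate 5 alone. Macrophage markers averaged lower for 4 of 10, at 10.20 to 11.38 in controls and 10.47 to 11.80 with miR-132. Fibroblast markers, lower for 5 of 8, spanned 14.30 to 14.61 and 13.85 to 14.89, lowest on miR-132 replicate 3. Endothelial markers, lower for 6 of 8, spanned 6.57 to 7.12 and 6.19 to 7.19, lowest on the same array. In each of these 2 lists, miR-132 replicate 3 lay below the control mean for 8 of 8 markers (53.3% of all genes). Adipocyte markers averaged higher for 9 of 9, at 8.01 to 10.62 in controls and 7.99 to 11.73 with miR-132, lowest on replicate 3 and highest on replicate 1. The mean difference of the fibroblast markers was -0.06 as deposited and 0.07 after quantile normalization. The part of these cell types was not tested.

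**Figure D5:**
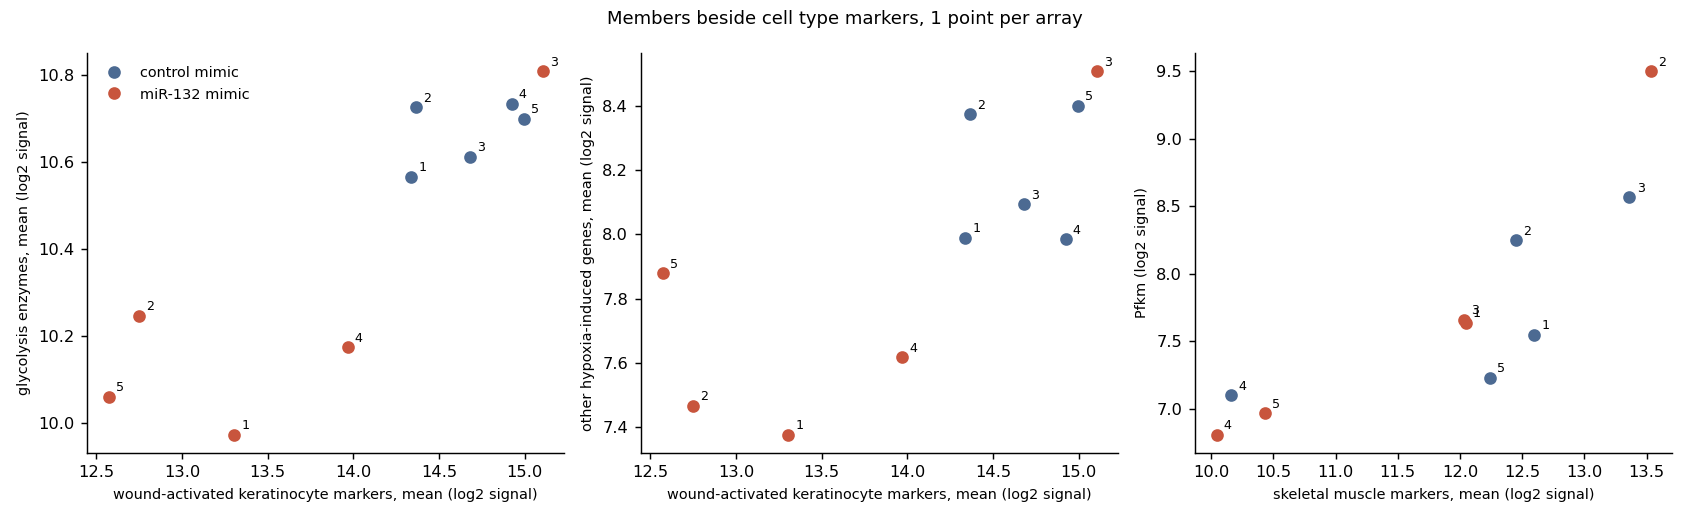
Each point is an array, labelled by replicate. The left and middle panels set the mean of glycolysis enzymes and of other hypoxia-induced genes (y axes, log2 signal) against the mean of wound-activated keratinocyte markers (x axes), and the right panel sets Pfkm against the mean of skeletal muscle markers. miR-132 replicate 3 lies at the upper right of the first 2 panels, above every control, and miR-132 replicate 2 at the upper right of the third.

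Other genes of the pathway averaged lower and higher in similar numbers. Of 87 further genes of glucose metabolism and the hypoxia response, 73 were tested, of which 40 averaged lower and 33 higher, with a median of -0.012. An unadjusted p under 0.05 was reached by 4 lower genes (5.61% of all genes) and 1 higher gene (2.46%), and 0 passed adjustment. In either direction that makes 5 of 73, against 8.06% of all genes. The count was 10 without miR-132 replicate 3 (14% of all genes), 2 without control replicate 2 (7.6%) and 3 without control replicate 4 (5.69%). It was 11 with the covariate for hybridisation controls (9.24%), 3 without miR-132 replicates 2 and 5 (5.76%) and 13 with quantile normalization and array 3 of the miR-132 group left out (15%).

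Of 16 other glycolysis and gluconeogenesis genes, 11 averaged lower, with Slc2a6, a lysosomal sugar transporter, at -0.21 ± 0.08 and Slc2a8, an intracellular glucose transporter, at 0.14 ± 0.06 (SE, unadjusted p of 0.0217 and 0.0488, adjusted p of 0.597 and 0.618). Both lay close to the level filter. Genes of the pyruvate dehydrogenase complex and pyruvate import averaged higher for 8 of 11, with a median of 0.07, and Pdp2, a phosphatase that switches the complex on, had the smallest p (-0.13 ± 0.09, SE). Pentose phosphate genes averaged lower for 3 of 5, with Pgls at -0.17 ± 0.08 (SE, unadjusted p of 0.0531). Glycogen genes were lower for 4 of 9 (mean difference of -0.018, and 0.10 after quantile normalization), with Pgm1, which interconverts glucose phosphates, at -0.18 ± 0.11 (SE).

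HIF partners and further regulators averaged lower for 5 of 7 (mean difference of -0.06, and 0.02 after quantile normalization). Vhl, the ligase subunit that destroys hydroxylated HIF, measured 6.20, 5.89, 6.17, 6.02 and 6.16 in controls and 6.36, 6.06, 6.25, 6.39 and 6.23 with miR-132 (0.17 ± 0.08, SE, unadjusted p of 0.0723). Further hypoxia-induced genes were lower for 14 of 25, with a median of -0.052. Mif, a cytokine gene that HIF induces, measured 13.13, 12.81, 12.47, 13.58 and 13.15 in controls and 10.92, 11.66, 12.78, 12.20 and 12.23 with miR-132. It averaged 2.10-fold lower, with all 5 miR-132 arrays below the control mean (-1.07 ± 0.34, SE, unadjusted p of 0.0106, adjusted p of 0.597). Jmjd6, a hydroxylase, was at -0.24 ± 0.09 and Ccng2, an atypical cyclin, at -0.26 ± 0.10 (SE, adjusted p of 0.597 for each). Vegfa, the angiogenic factor that HIF induces, measured 8.87 to 9.90 in controls and 8.08 to 9.90 with miR-132 (-0.66 ± 0.36, SE, adjusted p of 0.657), with replicate 3 again at the top of the control range.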

How the data were processed

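The authors deposited 1 value per feature and array in log2 units, made with Affymetrix Expression Console 1.4 and RMA per the submitters' processing notes. The log2 scale is read from the values, which share an upper limit of 19.93, about 1000000 on the linear scale. For the genome build of the features, nothing is stated in the sources used here. The number of arrays limits the precision. All 10 columns matched a sample by accession.

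Platform symbols, updated through the RefSeq gene table of GRCm38.p6, gave 31258 features with 1 gene, 1492 with several and 39938 unnamed. The brightest feature of each gene by its mean over 10 arrays was kept, and genes with a mean above 4.17, the median over all features, were tested. Genes were tested with limma 3.58.1 under R 4.3.3, using lmFit and an eBayes fit whose prior follows intensity, for miR-132 minus control, two-sided, all 10 arrays, no covariates, Benjamini-Hochberg over 17633 genes. The fit was tried on simulated arrays with independent noise for each gene, which lack shifts shared by many genes of 1 array.

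The members, lists and tests were chosen with earlier results of these data known. Lists are described by counts, means and medians with no test. Values per array are given for the members of each role with the smallest p (up to 3, or 5 in the 2 large roles), and their paralogues among the members, and of the other pathway lists genes at an unadjusted p under 0.05 or the smallest p are named. Values of Gapdh, Ndrg1, Ero1a, P4ha1, Vegfa, Ldha, Aldoa, Pgk1, Krt17, Il1rn, Tgm1, Krt77, Flg2, Eno3, Pygm and Dld were added after they were seen. Alternatives were no level filter, quantile normalization, median centring, the replicate number as a block, no trend, a hybridisation covariate, the mean of all features and arrays left out. Another Pgk1 feature and lists without Gapdh were added after seeing the data.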

Additional observations from a re-analysis of the deposited data

Results flagged for a closer look

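Among 84 groups of 5 arrays (36 members and 6 list means in each treatment), 10 had an array set far from the other 4, where chance gives about 4.2 by the 1 in 20 rule. Members are not independent of each other, so these counts are not independent either. With miR-132, replicate 3 stood high for Pfkp (9.94, others 8.36 to 8.70), Aldoc (5.31, others 4.63 to 4.80), Egln3 (15.58, others 11.34 to 12.33), Car12 (9.69, others 7.44 to 7.91) and the mean of all members (9.75, others 8.74 to 8.99). Hif1a was low on miR-132 replicate 2 (13.72, others 14.86 to 14.99). In controls, replicate 4 stood high for Pfkl (8.22, others 7.67 to 7.72), Pgk1 (17.11, others 16.44 to 16.56) and Hif1a (15.21, others 14.82 to 14.86). Aldoa stood high on control replicate 5 (11.22, others 11.08 to 11.11).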

How the results depend on the processing

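Gapdh, which has no direction as deposited, was 0.10 after quantile normalization and -0.06 after median centring. Of 700 differences of the other members under 20 alternatives, 672 kept their direction and side of the threshold, 2 passed it (Pfkp and Egln3 without miR-132 replicate 3) and 26 turned sign. The turns concerned 7 members with differences near 0 or wide spread. Pfkm was 0.12 after quantile normalization, 0.65 with the hybridisation covariate and 0.17 with quantile normalization and miR-132 array 3 left out, and -0.47 to 0.20 with single arrays left out. P4ha1 was 0.12 after quantile normalization, 0.20 with array 3 left out as well, and -0.21 to 0.0905 with single arrays left out. P4ha2 was -0.06 after median centring, -0.23 with the covariate, -0.014 without miR-132 replicates 2 and 5 and -0.0615 to 0.0560 with single arrays left out. Bnip3 was 0.012 after quantile normalization, and leaving out miR-132 replicates 2 and 5 gave 0.044 for Bnip3 and 0.019 for Pdk1. With single arrays left out, Adm ranged from -0.66 to 0.37 and Car9 from -0.16 to 0.003.

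The count of members lower at an unadjusted p under 0.05, 7 as reported, was 2 after quantile normalization, 14 with the covariate, 1 without miR-132 replicates 2 and 5, 17 with quantile normalization and array 3 left out, and 2 to 21 with single arrays left out. The replicate number as a block gave 4. The labels do not say whether equal replicate numbers pair the samples. Same-numbered arrays correlated at -0.03 to 0.16, and 2 of 10 arrays correlated best with their own number, which cannot decide the question. The block called 0 genes after adjustment, as did the fit without it. The count of all genes called ranged from 0 to 52 with single arrays left out. The count of all genes at unadjusted p under 0.05 ranged from 948 to 2477, and it was 2633 with no level filter and 2652 with quantile normalization and array 3 left out. The count of further pathway genes was 11 with the covariate (9.24% of all genes), 3 without miR-132 replicates 2 and 5 (5.76%), 13 with quantile normalization and array 3 left out (15%), and 2 to 10 with single arrays left out. With the covariate the mean difference was -0.74 for the members and -0.87 for other hypoxia-induced genes, and glycolysis enzymes stood 0.29 above these. Quantile normalization moved the median of all genes from -0.016 to 0.016 and median centring to -0.08. The cause of these shifts was not tested.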

Other observations

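Muscle isoforms of glycolysis and glycogen breakdown, none of them members, varied widely between arrays of both groups. Eno3, the muscle enolase, measured 12.04, 11.25, 12.18, 9.40 and 10.31 in control replicates 1 to 5 and 10.81, 12.76, 11.25, 9.24 and 8.58 in miR-132 replicates 1 to 5. Pygm, the muscle glycogen phosphorylase, ranged from 7.29 to 9.53 in controls and from 6.15 on miR-132 replicate 4 to its highest level on miR-132 replicate 2. Both were highest on miR-132 replicate 2, which also had the highest mean of skeletal muscle markers (13.53). Neither differed between the groups beyond that spread (-0.51 ± 0.83 and 0.02 ± 0.80, SE, limma's adjusted p of 0.894 and 1).

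Genes of the pyruvate dehydrogenase complex and pyruvate import had their highest mean on miR-132 replicate 1 (7.99), the array with the lowest mean of glycolysis enzymes (9.97) and the highest mean of adipocyte markers (11.73). Their lowest mean was on miR-132 replicate 5 (7.35), where the mean of glycolysis enzymes was also below every control (10.06). Dld, a subunit of the complex, measured 12.94 on miR-132 replicate 1, 11.38 to 12.13 on the other miR-132 arrays, and 11.26 to 11.87 in controls.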
